A study of Mus musculus with 6 samples.

Results

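The genes described here encode the route from glucose to lactate and the making and breaking of glycogen: 34 named genes for glucose and lactate carriers, the enzymes of glycolysis, the bifunctional PFKFB regulators and the enzymes of glycogen. They were chosen by name, and all 34 were found among the 21741 gene symbols of the count tables. RNA was sequenced from 6 libraries of primary cardiomyocytes from mouse heart, which the labels gave as batch 1. In 3 libraries the cells were wild type and had received the control adenovirus Adv-NC, and in 3 they had received the adenovirus Adv-ABHD11 for overexpression of ABHD11, a mitochondrial hydrolase. All cells of both arms carried an adenovirus and were kept in hypoxia for 24 h, so that the contrast asked how hypoxic cells with the ABHD11 virus differed from hypoxic cells with the control virus. Normoxic cells were not analysed here, and the labels gave no mouse strain or age and no species for the transgene. No label told whether an arm's replicates were separate cultures or animals. The p-values therefore reflect the spread among these libraries alone, which may be technical.

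Glycolysis splits glucose into pyruvate in the cytosol and yields ATP without oxygen. When oxygen is short, lactate dehydrogenase turns pyruvate into lactate, which restores the NAD that the pathway needs, and carriers of the MCT family export it. Hypoxia-inducible factors (HIF) bind short DNA elements near many glycolytic genes and raise their transcription. The resting adult heart burns mostly fatty acids, keeps a store of glycogen, and draws more on glucose and glycogen when its oxygen falls. Several steps are carried by isoforms from separate genes that are named for the tissue where they prevail (liver, muscle, brain or platelet), and the isoforms differ in their regulation.

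The 6 libraries held 16291166 to 20336828 counts on genes, and 1 count was worth 0.0492 to 0.0598 CPM (counts scaled to a common library size). Log2 CPM across genes correlated at 0.987 to 0.992 within the arms and at 0.926 to 0.937 between them. Mouse Abhd11 itself stood at 31.5, 35.2 and 33.9 CPM with Adv-NC and 38.0, 42.5 and 36.2 CPM with Adv-ABHD11, a log2 fold change of 0.21 ± 0.101 (SE) that did not pass (edgeR quasi-likelihood test, adjusted p = 0.0765), so that the overexpression the labels describe was not seen in the mouse gene and the arms are called by their labels. Markers of several cell types differed between the arms. Their calls are to be read against the 29.9% of all tested genes that were called higher and the 29.5% called lower. The summed CPM of 10 cardiomyocyte markers (Tnnt2, Myh6, Actc1 and others) was 21270, 20090 and 19700 CPM with Adv-NC and 37470, 34920 and 35000 CPM with Adv-ABHD11, 1.76 times as high on average, with 9 of 10 genes called higher. For 10 endothelial markers the sum was 412, 421 and 456 CPM with Adv-NC and 700.5, 663 and 641 CPM with Adv-ABHD11, with 8 called higher. For 7 markers of lung epithelium the sum was 0, 0 and 0.0513 CPM with Adv-NC and 145, 141 and 133 CPM with Adv-ABHD11, with 6 of the 7 at 0 counts in every Adv-NC library, and for 7 red cell markers it was 0.647, 0.313 and 0.462 CPM with Adv-NC and 25.4, 26.0 and 22.8 CPM with Adv-ABHD11. The sum of 8 fibroblast markers was 16800, 13830 and 17080 CPM with Adv-NC and 14740, 10970 and 13150 CPM with Adv-ABHD11, with 4 lower and 2 higher, and that of 8 leukocyte markers was 72.1, 75.1 and 92.4 CPM with Adv-NC and 71.0, 78.8 and 71.6 CPM with Adv-ABHD11. For 7 skeletal muscle markers it was 2.86, 4.75 and 2.82 CPM with Adv-NC and 3.47, 3.48 and 2.56 CPM with Adv-ABHD11, with Myh4 and Myod1 at 0 in all libraries. For 7 smooth muscle markers it was 2697, 3155 and 3231 CPM with Adv-NC and 4288, 4528 and 3968 CPM with Adv-ABHD11, with 5 called higher, and for 6 epicardial markers 180.5, 183 and 199 CPM with Adv-NC and 106, 104 and 99.2 CPM with Adv-ABHD11, with 5 called lower and 1 higher. The part of these other cell types in the results was not tested, and in bulk RNA fewer cells of a type and less RNA per cell cannot be told apart.

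Most of the pathway was higher with Adv-ABHD11. Of the 34 genes, all of which passed the filter on low counts, 26 rose, 2 fell and 6 did not pass (edgeR quasi-likelihood test, Benjamini-Hochberg adjusted p under 0.05 over all 12790 genes tested). The same rule called 59.3% of all tested genes, 29.9% higher and 29.5% lower, so that the share of members called higher was above the background and the share called lower below it. The median log2 fold change was 0.602 over the 34 genes and 0.016 over all tested genes. At least 2-fold rises were found for 7 members (Aldoc, Pfkl, Pygl, Pfkfb3, Slc16a3, Slc2a3 and Pygb), against 8.09% of all tested genes, and Pfkfb4 was the 1 member with an at least 2-fold fall, against 7.54%. The values of the arms did not overlap for 27 members that were higher and 2 that were lower, where this held for 31.5% and 31.7% of all tested genes. Against a 1.5-fold change in place of no change, 14 members were higher and 2 lower, against 9.52% and 9.95% of all tested genes. The size of the rise was compared with that of the cardiomyocyte markers, whose median log2 fold change was 0.821: it was above that value for 12 members and below it for 22.

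**Figure D1:**
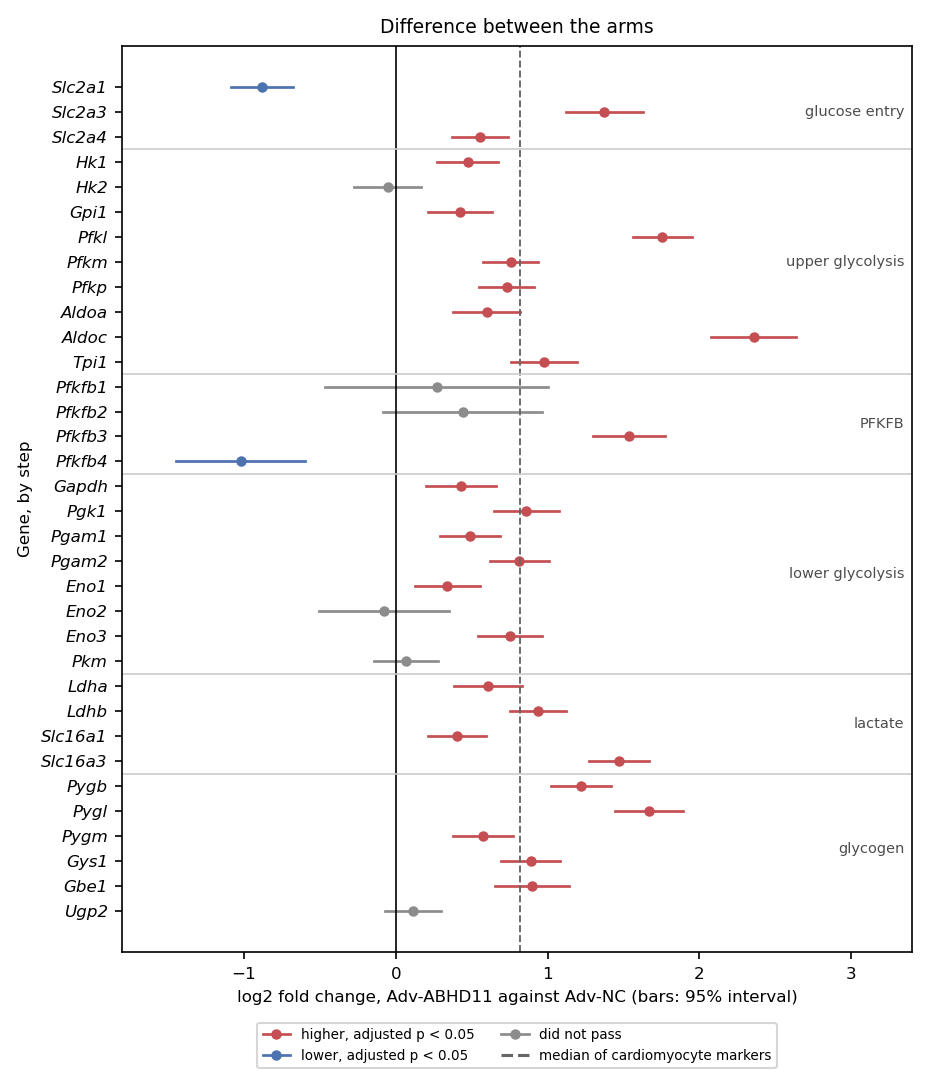
Log2 fold change of each of the 34 genes, Adv-ABHD11 against Adv-NC (x axis), with the 95% interval from the edgeR fit, for genes ordered by step (y axis). Of the 34 points, 26 lie to the right of 0 as called higher, Slc2a1 and Pfkfb4 lie to the left as called lower, and the dashed line marks the median of the cardiomyocyte markers at 0.821.

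Genes commonly induced by hypoxia and the rest of the pathway had similar medians, but the hypoxia-induced types spread more widely. Of 22 hypoxia-induced types, 16 rose, 2 fell and 4 did not pass, with a median log2 fold change of 0.602 and a range of -1.02 to 2.36. Of the 12 others, 10 rose and 2 did not pass, with a median of 0.653 and a range of 0.27 to 1.22. Over all tested genes 29.9% rose and 29.5% fell. Rises of at least 2-fold were found for 6 of the 22 and 1 of the 12, against 8.09% of all tested genes. The difference between these classes was not tested. Both genes that fell, Slc2a1 and Pfkfb4, belonged to the hypoxia-induced types. Since every library came from hypoxic cells, induction by hypoxia itself was not measured.

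The sequences before the transcription starts were read for the core of the HIF element, since all the cells were hypoxic and many of these genes are known targets of HIF. RefSeq promoters (GRCm38.p6) were matched for 32 of the 34 genes by symbol, and the 250 bases before the start were searched on both strands for ACGTG and for GCGTG. The letters ACGTG stood in 14 of 32 member promoters (43.8%), in 22.0% of the promoters of tested genes and in 16.6% of all promoters of that length. With GCGTG counted too, the figures were 22 of 32 (68.8%), 57.0% and 38.6%. These letters overlap the E-box CACGTG, which holds ACGTG on each strand and was present in 4 member promoters (12.5%) and in 8.53% of those of tested genes. ACGTG was found in 10 of the 24 promoters of members that rose and in 4 of the 8 others. A match describes the letters and not a bound site. Shown are 4 promoters of genes that rose and that of Slc2a1, which fell, 5′ to 3′ along the gene, with each match in capitals. RefSeq starts, from which the windows were counted, can differ from the gene starts of GENCODE M21 given with the genes. They lie at chr7:46845554-46845803 (plus strand) for Ldha, chrX:106186850-106187099 (plus strand) for Pgk1, chr11:120948817-120949066 (plus strand) for Slc16a3, chr11:78322823-78323072 (plus strand) for Aldoc and chr4:119108495-119108744 (plus strand) for Slc2a1.
Ldha: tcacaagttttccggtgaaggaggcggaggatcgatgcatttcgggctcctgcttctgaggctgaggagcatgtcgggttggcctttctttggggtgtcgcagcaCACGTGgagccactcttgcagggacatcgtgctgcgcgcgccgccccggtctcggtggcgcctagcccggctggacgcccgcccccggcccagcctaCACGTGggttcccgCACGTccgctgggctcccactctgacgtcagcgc
Pgk1: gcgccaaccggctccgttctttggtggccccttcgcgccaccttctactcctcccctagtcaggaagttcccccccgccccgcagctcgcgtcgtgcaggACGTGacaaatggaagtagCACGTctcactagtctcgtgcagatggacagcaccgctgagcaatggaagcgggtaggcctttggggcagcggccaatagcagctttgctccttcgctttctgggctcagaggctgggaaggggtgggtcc
Slc16a3: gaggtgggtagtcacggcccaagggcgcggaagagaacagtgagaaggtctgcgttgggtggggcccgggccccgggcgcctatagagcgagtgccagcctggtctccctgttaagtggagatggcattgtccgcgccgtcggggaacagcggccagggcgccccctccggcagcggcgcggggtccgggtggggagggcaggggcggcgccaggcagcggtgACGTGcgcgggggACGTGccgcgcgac
Aldoc: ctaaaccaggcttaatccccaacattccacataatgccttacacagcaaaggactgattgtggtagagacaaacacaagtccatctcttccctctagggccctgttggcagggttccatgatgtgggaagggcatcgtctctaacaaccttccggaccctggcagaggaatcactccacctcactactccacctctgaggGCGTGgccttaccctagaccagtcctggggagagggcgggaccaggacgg
Slc2a1: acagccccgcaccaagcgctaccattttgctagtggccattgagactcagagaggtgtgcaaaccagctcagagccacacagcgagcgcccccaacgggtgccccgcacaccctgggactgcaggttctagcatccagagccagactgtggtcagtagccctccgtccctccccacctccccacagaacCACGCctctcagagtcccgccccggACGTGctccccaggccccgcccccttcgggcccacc
Ldha held 5 matches, of which 4 form 2 E-boxes on both strands, while Pgk1 and Slc16a3 held 2 each. Aldoc, the member with the largest rise, held 1 match, to GCGTG. Slc2a1 held 1 match to ACGTG and 1 to GCGTG read on the opposite strand. Pfkfb4, the other member that fell and whose promoter is not shown, held 1 match, to GCGTG, and 0 to ACGTG.

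Glucose entry moved in opposite directions by carrier. Slc2a1 (chromosome 4, 119108711 to 119137983, plus strand, GRCm38), the widely expressed basal glucose carrier, stood at 394, 369 and 462 CPM with Adv-NC and 235, 211 and 219.7 CPM with Adv-ABHD11. Each Adv-ABHD11 library was below each Adv-NC library, and the gene fell 1.84-fold (log2 fold change -0.88 ± 0.0968 SE, edgeR adjusted p = 4.61e-07). In the same libraries 5 of 6 epicardial markers were lower and 1 higher, and 4 of 8 fibroblast markers were lower and 2 higher. Of 10 endothelial markers 8 were higher, and of 10 cardiomyocyte markers 9, where 29.9% of all tested genes rose and 29.5% fell. The part of these cell types in the fall of Slc2a1 was not tested. Slc2a4 (chromosome 11, 69942539 to 69948188, minus strand), the insulin-responsive carrier of muscle and fat, stood at 76.1, 71.7 and 70.4 CPM with Adv-NC and 115, 104 and 102 CPM with Adv-ABHD11. Its arms did not overlap, and it rose 1.47-fold (edgeR adjusted p = 3.13e-05). Slc2a3 (chromosome 6, 122727809 to 122801640, minus strand), a high-affinity carrier best known from neurons, was scarce at 9.71, 9.18 and 11.1 CPM with Adv-NC and 26.3, 24.9 and 26.4 CPM with Adv-ABHD11, and rose 2.59-fold with a 95% interval of 2.17 to 3.08 (edgeR adjusted p = 2.53e-08).

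Summed over the 3 carriers, RNA per length was lower with Adv-ABHD11, the one family total of which this held. The sum went from 156 ± 14.5 to 117 ± 6.43 CPM per kilobase (mean ± SD, n = 3 each, as for all such values below), a ratio of 0.747 with no overlap (p = 0.1 in a two-sided exact permutation test, which with 3 libraries an arm cannot go lower). The share of Slc2a1 in that sum was 78.7, 78.7 and 82.2% with Adv-NC and 57.9, 57.8 and 58.9% with Adv-ABHD11. The share of Slc2a4 was 19.7, 19.7 and 16.2% with Adv-NC and 36.7, 36.6 and 35.3% with Adv-ABHD11, so the muscle carrier took up most of what Slc2a1 lost in share (exact permutation p = 0.1 for each). These shares use the length of the longest protein-coding transcript in GENCODE M21, which need not be the transcript made in these cells.

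Hexokinase traps glucose in the cell by phosphorylating it. Hk1, the form that most tissues share, stood at 475, 397 and 449 CPM with Adv-NC and 656, 575 and 602 CPM with Adv-ABHD11, and rose 1.39-fold (edgeR adjusted p = 0.000343). Hk2, the hypoxia-inducible form of muscle and heart, stood at 117, 94.8 and 107 CPM with Adv-NC and 115, 88.6 and 104 CPM with Adv-ABHD11. The arms of Hk2 overlapped, and its ratio of 0.964 had a 95% interval of 0.827 to 1.12 (edgeR adjusted p = 0.685). Hk1 made up 84.2 ± 0.255% with Adv-NC and 88.5 ± 0.720% with Adv-ABHD11 of the hexokinase RNA per length (exact permutation p = 0.1). Gpi1, the isomerase of the next step, rose from 1518 ± 145 to 2040 ± 90.4 CPM, or 1.34-fold (edgeR adjusted p = 0.00138).

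Phosphofructokinase, the committed step of glycolysis, rose in all 3 isoforms, the liver type most, where 29.9% of all tested genes rose. Pfkl, the liver type (chromosome 10, 77986947 to 78010083, minus strand), stood at 184, 206 and 209 CPM with Adv-NC and 681, 705 and 638 CPM with Adv-ABHD11. All 3 Adv-ABHD11 libraries stood far above all 3 Adv-NC libraries, and the gene rose 3.38-fold with a 95% interval of 2.95 to 3.86 (log2 fold change 1.76 ± 0.0921, edgeR adjusted p = 2.79e-11). Pfkm, the muscle type, stood at 274, 260.2 and 250.2 CPM with Adv-NC and 462, 438 and 424 CPM with Adv-ABHD11 and rose 1.69-fold (edgeR adjusted p = 6.90e-07). The platelet type Pfkp rose 1.66-fold, from 226 ± 11.4 to 375 ± 11.4 CPM (edgeR adjusted p = 9.40e-07).

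With these rises the leading isoform of the family changed. Per length, Pfkm was the most abundant form with Adv-NC and Pfkl with Adv-ABHD11. The share of Pfkm was 45.7 ± 2.58% with Adv-NC and 36.1 ± 0.688% with Adv-ABHD11, and that of Pfkl was 25.2, 27.5 and 28.0% with Adv-NC and 41.8, 43.9 and 42.0% with Adv-ABHD11. Pfkp made up 27.4 ± 1.11% with Adv-NC and 21.3 ± 0.572% with Adv-ABHD11. None of these shares overlapped between the arms (exact permutation p = 0.1 each). The whole family went from 199 ± 2.33 to 425 ± 15.7 CPM per kilobase, 2.14 times as much. The summed CPM of 5 liver cell markers was 10.9, 0.0521 and 0.205 CPM with Adv-NC and 0.299, 0.277 and 0.394 CPM with Adv-ABHD11, and their part in these values was not tested.

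The PFKFB enzymes make and remove the fructose bisphosphate that activates phosphofructokinase. Pfkfb3 (chromosome 2, 11471433 to 11554077, minus strand), the form with the strongest kinase side, stood at 20.4, 15.6 and 21.2 CPM with Adv-NC and 55.2, 54.9 and 55.8 CPM with Adv-ABHD11. It rose 2.90-fold with no overlap (log2 fold change 1.54 ± 0.114, edgeR adjusted p = 2.80e-09). Pfkfb4 (chromosome 9, 108991778 to 109032228, plus strand), first known from testis and, like Pfkfb3, induced by hypoxia in many cells, stood at 7.23, 9.02 and 8.42 CPM with Adv-NC and 3.17, 5.47 and 3.49 CPM with Adv-ABHD11. It fell 2.03-fold with a 95% interval for the log2 fold change of -1.45 to -0.60 (edgeR adjusted p = 0.000295), on counts of 134, 173 and 164 against 53, 99 and 71. So these hypoxia-induced regulators moved in opposite directions, and the share of Pfkfb3 in the family was 57.3, 45.8 and 57.2% with Adv-NC and 84.7, 77.8 and 83.8% with Adv-ABHD11. The other 2 forms were scarce. The liver form Pfkfb1 had 17 to 38 counts a library (log2 fold change 0.27 ± 0.349, edgeR adjusted p = 0.521), and the heart form Pfkfb2 was at 1.83, 2.09 and 1.85 CPM with Adv-NC and 2.21, 2.54 and 3.05 CPM with Adv-ABHD11 (adjusted p = 0.136).

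**Figure D2:**
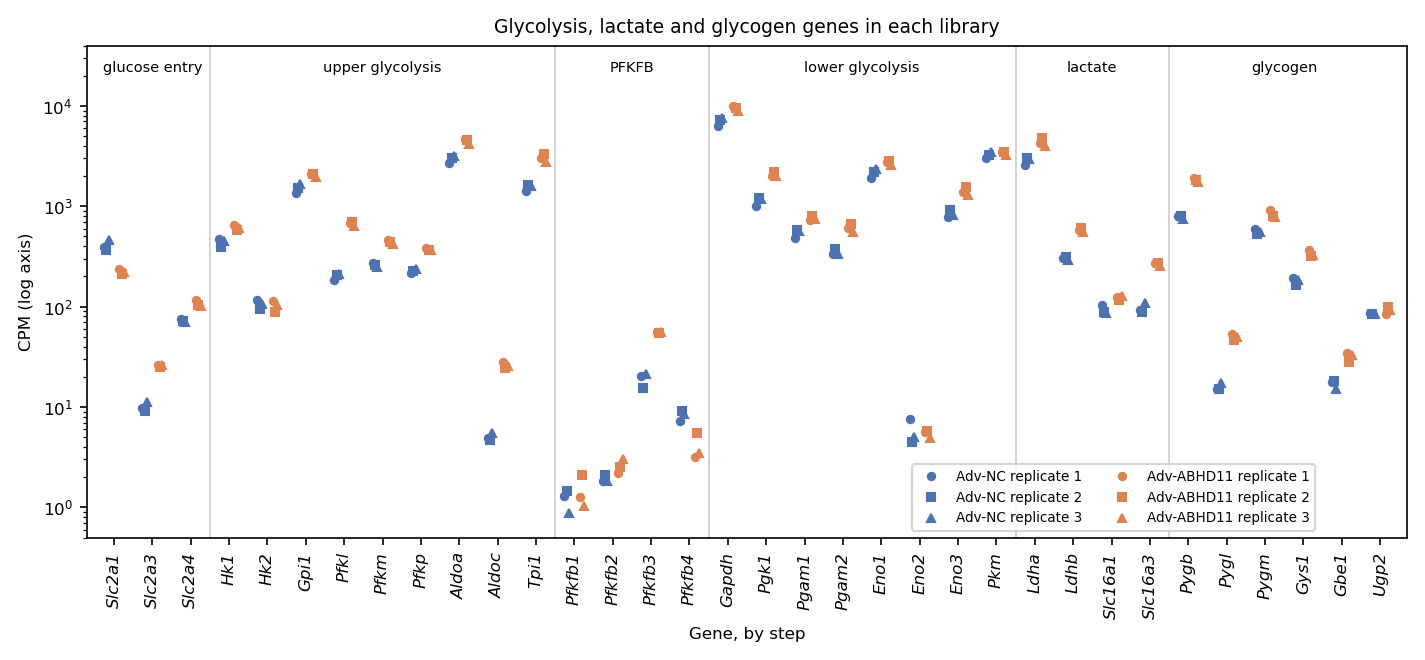
CPM of each of the 34 genes in each of the 6 libraries, on a log axis, with genes ordered by step and 1 point a library (colour for the arm, shape for the replicate). Gapdh lies highest at 6347 to 9932 CPM and Pfkfb1 lowest, and the points of Slc2a1 and Pfkfb4 lie lower with Adv-ABHD11 than with Adv-NC.

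Aldolase and triose phosphate isomerase end the upper part of the pathway. Aldoc (chromosome 11, 78322968 to 78327781, plus strand), the brain type of aldolase, stood at 4.91, 4.69 and 5.54 CPM with Adv-NC and 27.8, 24.6 and 25.4 CPM with Adv-ABHD11. This was the largest rise of the 34 genes, 5.13-fold with a 95% interval of 4.22 to 6.23 (log2 fold change 2.36 ± 0.133, edgeR adjusted p = 7.04e-11). Yet Aldoc stayed a small part of aldolase RNA per length, at 0.0951 ± 0.00824% with Adv-NC and 0.322 ± 0.0208% with Adv-ABHD11. Aldoa, the muscle type that made up the rest, stood at 2673, 3032 and 3163 CPM with Adv-NC and 4655, 4572 and 4196 CPM with Adv-ABHD11 and rose 1.51-fold (adjusted p = 8.50e-05). Tpi1, which interconverts the triose phosphates, stood at 1418, 1624 and 1600 CPM with Adv-NC and 3056, 3284 and 2787 CPM with Adv-ABHD11 and rose 1.97-fold (adjusted p = 2.69e-07), the largest rise among the single-gene steps of glycolysis.

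In the lower part of the pathway 6 of 8 genes rose, where 29.9% of all tested genes rose. None of the 8 rose by as much as 2-fold, and the last step did not pass. Gapdh, the dehydrogenase that uses NAD and a common reference gene, stood at 6347, 7226 and 7589 CPM with Adv-NC and 9932, 9592 and 8974 CPM with Adv-ABHD11. It was the most abundant member per length in both arms and rose 1.35-fold (log2 fold change 0.43 ± 0.109, edgeR adjusted p = 0.00259). Pgk1, which makes the first ATP of the pathway, stood at 1010, 1215 and 1188 CPM with Adv-NC and 2017, 2188 and 1992 CPM with Adv-ABHD11 and rose 1.81-fold (adjusted p = 1.05e-06). Pkm, the pyruvate kinase that makes the last ATP, stood at 3006, 3226 and 3488 CPM with Adv-NC and 3455, 3486 and 3242 CPM with Adv-ABHD11. Its arms overlapped, with a ratio of 1.05 and a 95% interval of 0.905 to 1.21 (adjusted p = 0.582). Counts per gene do not separate the splice forms of Pkm. With trends on GC content and transcript length removed from every library, Pkm passed as higher (log2 fold change 0.27, edgeR adjusted p = 0.000352).

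Among isoforms of the lower part, the muscle types gained share. The muscle mutase Pgam2 stood at 334, 372 and 333 CPM with Adv-NC and 608, 659 and 560.4 CPM with Adv-ABHD11 and rose 1.76-fold (edgeR adjusted p = 7.45e-07), and the widely expressed Pgam1 rose 1.40-fold, from 544 ± 50.3 to 763 ± 37.4 CPM (adjusted p = 0.000251). The muscle enolase Eno3 stood at 790.5, 919 and 809.8 CPM with Adv-NC and 1393, 1544 and 1309 CPM with Adv-ABHD11 and rose 1.69-fold (adjusted p = 4.47e-06), and the widely expressed Eno1 rose 1.27-fold, from 2149 ± 218 to 2721 ± 128 CPM (adjusted p = 0.00863). Per length, the share of Pgam2 was 57.4 ± 1.94% with Adv-NC and 62.7 ± 1.31% with Adv-ABHD11 and that of Eno3 33.6 ± 2.47% with Adv-NC and 40.2 ± 1.18% with Adv-ABHD11, without overlap (exact permutation p = 0.1 each). Muscle types of other families went both ways. The shares of Hk2, Pfkm, Aldoa, Ldha and Pygm were lower with Adv-ABHD11, and those of Slc2a4 and Slc16a3 higher. Cardiomyocyte markers were higher in the same libraries, and skeletal muscle markers were at 2.56 to 4.75 CPM in sum in all 6 libraries. The part of these cell types in the shifts was not tested. The neuronal enolase Eno2 was at 5.72 ± 1.70 and 5.43 ± 0.444 CPM and did not pass (adjusted p = 0.764).

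At the lactate end, all 4 genes rose, where 29.9% of all tested genes rose. Ldha, the muscle-type subunit that favours lactate production and whose promoter is shown above, stood at 2583, 3012 and 2931 CPM with Adv-NC and 4269, 4738 and 3970 CPM with Adv-ABHD11, and rose 1.52-fold (edgeR adjusted p = 9.68e-05). Ldhb, the heart-type subunit, stood at 303, 315 and 292 CPM with Adv-NC and 579.5, 613 and 551 CPM with Adv-ABHD11, and rose 1.92-fold (adjusted p = 6.02e-08). The share of the heart type in both subunits per length was 14.1, 12.7 and 12.2% with Adv-NC and 15.9, 15.3 and 16.2% with Adv-ABHD11, without overlap (exact permutation p = 0.1). Slc16a3 (chromosome 11, 120948480 to 120960868, plus strand), the lactate exporter of glycolytic muscle, stood at 92.9, 88.2 and 108 CPM with Adv-NC and 271, 273 and 257 CPM with Adv-ABHD11, and rose 2.77-fold with a 95% interval of 2.42 to 3.18 (adjusted p = 3.07e-10). Slc16a1, the lactate carrier of oxidative tissue including heart, stood at 103, 89.0 and 87.1 CPM with Adv-NC and 124, 117 and 127 CPM with Adv-ABHD11, and rose 1.32-fold (adjusted p = 0.000971). The exporter made up 48.0, 50.3 and 55.8% with Adv-NC and 69.0, 70.5 and 67.3% with Adv-ABHD11 of both carriers per length, so that the carriers were near parity with Adv-NC and the exporter led with Adv-ABHD11.

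**Figure D3:**
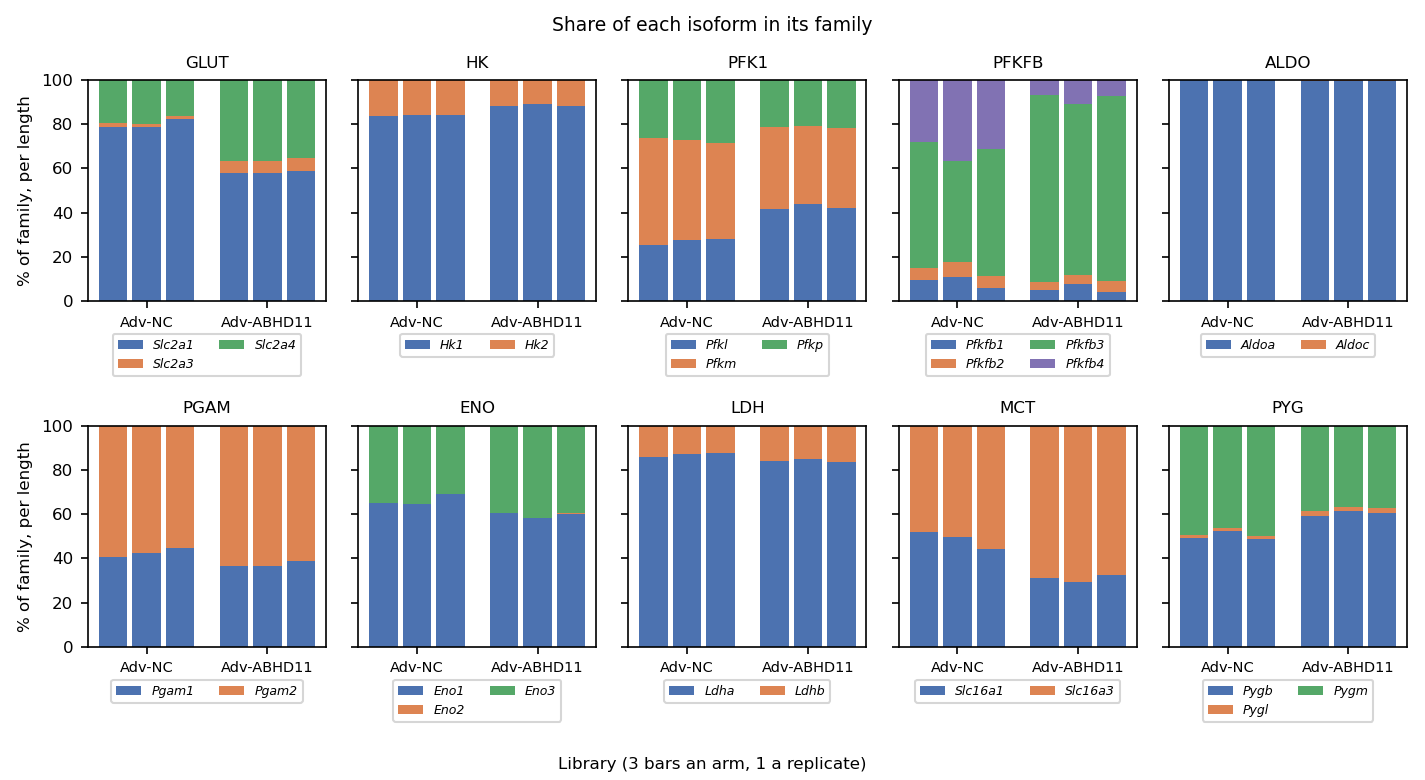
Share of each isoform in the summed CPM per kilobase of its family, in percent (y axis), for 10 families, with 1 bar a library and 3 libraries an arm. The share of Slc2a1 in the glucose carriers falls from 78.7 to 82.2% with Adv-NC to 57.8 to 58.9% with Adv-ABHD11, while Pfkl, Pfkfb3, Slc16a3 and Pygb gain share in theirs.

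Among the glycogen enzymes 5 of 6 members rose, for breakdown as well as synthesis, where 29.9% of all tested genes rose. Glycogen phosphorylase releases glucose phosphate from the store. Its brain type Pygb (chromosome 2, 150786735 to 150831758, plus strand) stood at 796, 805 and 747 CPM with Adv-NC and 1902, 1816 and 1755 CPM with Adv-ABHD11 and rose 2.33-fold (log2 fold change 1.22 ± 0.0932, edgeR adjusted p = 4.05e-09). The muscle type Pygm stood at 588, 526 and 560.4 CPM with Adv-NC and 912, 795 and 789.5 CPM with Adv-ABHD11 and rose 1.49-fold (adjusted p = 4.44e-05). The liver type Pygl (chromosome 12, 70190811 to 70231488, minus strand) was scarce at 14.9, 14.97 and 17.1 CPM with Adv-NC and 53.0, 46.7 and 50.1 CPM with Adv-ABHD11 and rose 3.18-fold (95% interval 2.73 to 3.71, adjusted p = 3.23e-10). Pygb and Pygm were about equal per length with Adv-NC, and Pygb led with Adv-ABHD11, its share being 49.3, 52.3 and 48.8% with Adv-NC and 59.2, 61.4 and 60.6% with Adv-ABHD11 (exact permutation p = 0.1).

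On the side of synthesis, Gys1, the glycogen synthase of muscle, stood at 193, 166 and 186 CPM with Adv-NC and 364, 322 and 324 CPM with Adv-ABHD11 and rose 1.85-fold (edgeR adjusted p = 2.05e-07). Gbe1, the branching enzyme, stood at 17.7, 18.2 and 15.1 CPM with Adv-NC and 34.3, 28.1 and 32.7 CPM with Adv-ABHD11 and rose 1.86-fold (adjusted p = 3.34e-06). Ugp2, which makes the UDP-glucose that the synthase uses, was at 85.1 ± 1.89 and 92.1 ± 7.70 CPM, with overlapping arms and a log2 fold change of 0.11 ± 0.0886 (adjusted p = 0.28). With upper-quartile scaling, which shifted the median of all genes by 0.107, Ugp2 passed at 0.22 (adjusted p = 0.0363), and with the GC content and length trend removed it was at -0.12 (adjusted p = 0.132).

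Most other genes of glycogen metabolism rose too. Of 25 listed, 24 were tested, 17 rose, 2 fell and 5 did not pass, and 10 rose at least 2-fold, against 29.9% and 8.09% of all tested genes called higher and called at least 2-fold higher. Stbd1, which binds glycogen and anchors it to membranes, stood at 57.5, 61.8 and 64.4 CPM with Adv-NC and 203, 232 and 217 CPM with Adv-ABHD11 and rose 3.55-fold (edgeR adjusted p = 1.46e-11). The subunits that target protein phosphatase to glycogen, where it activates the synthase, were prominent: Ppp1r3c stood at 11.4, 11 and 10.98 CPM with Adv-NC and 41.4, 40.9 and 46.5 CPM with Adv-ABHD11 and rose 3.85-fold (adjusted p = 5.85e-11). Ppp1r3b stood at 7.07, 5.89 and 5.85 CPM with Adv-NC and 33.5, 27.6 and 35.0 CPM with Adv-ABHD11 and rose 5.11-fold (adjusted p = 9.00e-11). Gyg, the glycogenin that primes a new glycogen particle, rose 2.61-fold, from 155 ± 6.58 to 405 ± 6.94 CPM (adjusted p = 2.12e-10). Counted after their values were seen, 6 of the 7 Ppp1r3 genes rose, and Ppp1r3e was at 2.51 ± 0.526 and 1.57 ± 0.470 CPM (adjusted p = 0.0547). Named after their values were seen, the genes that fell were Gaa, the lysosomal enzyme that digests glycogen, from 330 ± 33.0 to 157 ± 15.9 CPM, and a phosphoglucomutase listed as Pgm2, from 29.1 ± 3.21 to 20.7 ± 1.68 CPM. Glycogen genes rose in the same libraries as the cardiomyocyte markers, whose part was not tested.

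**Figure D4:**
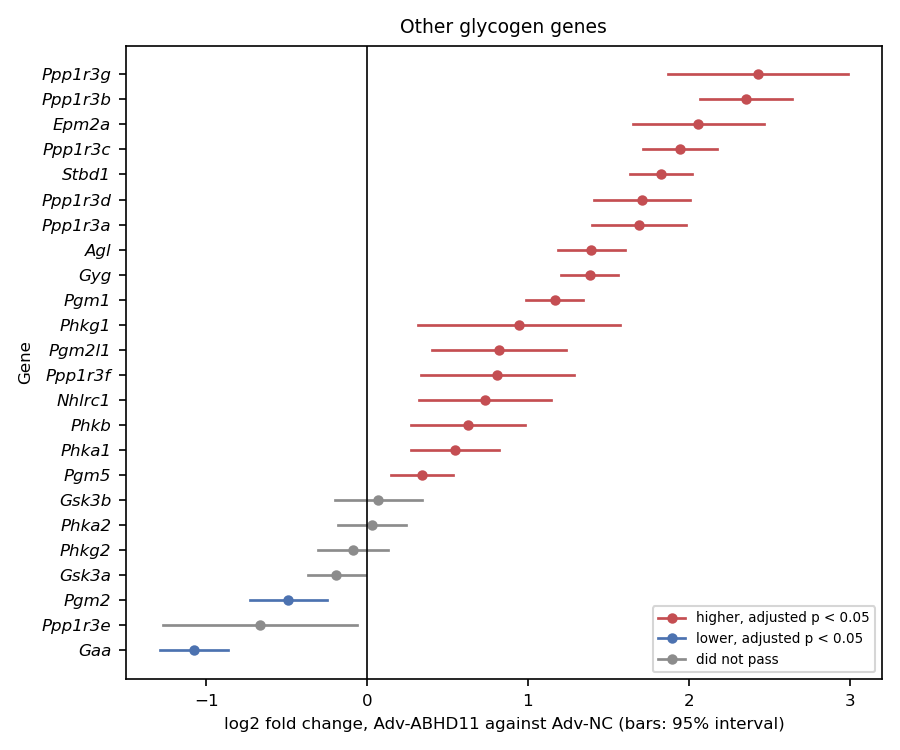
Log2 fold change, Adv-ABHD11 against Adv-NC (x axis), with its 95% interval, for the 24 tested glycogen genes outside the 34 (y axis). The 17 genes called higher are led by Ppp1r3g at 2.43 and Ppp1r3b at 2.35, and the 2 called lower are Pgm2 and Gaa.

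The remaining lists of the pathway were short and mixed, and are to be read against the 29.9% of all tested genes that rose and the 29.5% that fell. In other glycolytic genes 2 of 6 tested rose and 1 fell. Bpgm, an enzyme best known from red cells, rose 1.64-fold, from 7.16 ± 0.564 to 11.8 ± 1.03 CPM (edgeR adjusted p = 0.000423). In the same libraries 4 red cell markers rose, and their part in the rise of Bpgm was not tested. Adpgk, an ADP-dependent sugar kinase, fell 1.32-fold (adjusted p = 0.002). The leukocyte hexokinase Hk3 was at 6.25 ± 0.704 and 4.72 ± 0.598 CPM (adjusted p = 0.0592). Of 7 tested genes around other glucose carriers 4 rose and 3 fell. Txnip, an arrestin that restrains glucose uptake and is induced by glucose, rose from 506 ± 30.9 to 726 ± 6.32 CPM (adjusted p = 6.37e-05), and Slc2a12 rose 1.93-fold, whereas Slc2a6 fell 2.48-fold and Slc2a10 1.61-fold (adjusted p at most 0.00302). Basigin (Bsg), the chaperone that brings the lactate carriers to the membrane, rose with them, from 1355 ± 135 to 2034 ± 205 CPM (adjusted p = 0.000136), while Emb, which serves the related carrier Slc16a7, and Slc16a7 itself did not pass (adjusted p = 0.318 and 0.681).

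Of the gluconeogenic genes 4 were tested, and the kidney and liver enzymes Fbp1 and G6pc had 0 counts in every library. Slc37a4, the carrier of glucose phosphate into the endoplasmic reticulum, rose 1.64-fold, and the mitochondrial Pck2 1.42-fold, while G6pc3 fell 1.23-fold (edgeR adjusted p = 1.12e-05, 5.07e-05 and 0.0127), and Pcx was at 31.4 ± 1.07 and 30.4 ± 0.736 CPM (adjusted p = 0.706). The shuttles that carry electrons of cytosolic NADH into mitochondria compete with lactate dehydrogenase for that NADH. Of their 10 genes, 7 rose and 1 fell, where 29.9% of all tested genes rose and 29.5% fell. In the malate-aspartate shuttle the cytosolic malate dehydrogenase Mdh1 went from 1108 ± 51.9 to 2164 ± 43.2 CPM (1.95-fold, edgeR adjusted p = 9.35e-08). Its carriers Slc25a13 and Slc25a11 rose 1.89-fold and 1.45-fold (adjusted p = 8.22e-07 and 3.58e-05). Gpd2, the mitochondrial enzyme of the glycerophosphate shuttle, fell from 19.9 ± 2.12 to 9.35 ± 1.79 CPM (2.12-fold, adjusted p = 6.40e-06).

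Together the 34 genes took 2.64, 2.82 and 2.84% of all counts with Adv-NC and 4.32, 4.15 and 4.05% with Adv-ABHD11. The arms did not overlap, and the mean was 1.51 times as high (2.76 ± 0.110% against 4.17 ± 0.140%, SD, n = 3 each). Gapdh alone held 24.5 to 25.6% of these counts with Adv-NC and 22.6 to 23.6% with Adv-ABHD11. Transcripts of mtDNA took 2.36 to 2.55% and 4.99 to 7.67% of counts, and with these left out the share of the 34 genes was 2.83 ± 0.114% and 4.46 ± 0.114%. Relative to the summed CPM of the cardiomyocyte markers, that of the 34 genes was 1.22, 1.43 and 1.503 with Adv-NC and 1.12, 1.22 and 1.11 with Adv-ABHD11. On this scale the mean was 1.38 ± 0.148 with Adv-NC and 1.15 ± 0.0583 with Adv-ABHD11, and the lowest Adv-NC library lay beside the highest Adv-ABHD11 library.

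Set side by side as totals per length, the steps rose unevenly. Phosphofructokinase (2.14 times), the lactate carriers (2.07), triose phosphate isomerase (1.97), glycogen phosphorylase (1.93) and the PFKFB family (1.90) showed the highest ratios of Adv-ABHD11 to Adv-NC. Branching enzyme (1.86), glycogen synthase (1.85) and phosphoglycerate kinase (1.81) followed. The mutase (1.61), lactate dehydrogenase (1.57), aldolase (1.52) and enolase (1.41) came next, and Gapdh (1.35), the isomerase (1.34) and hexokinase (1.32) lower. Pyruvate kinase (1.05) and Ugp2 (1.08) overlapped between the arms, and the glucose carriers (0.747) were lower. The 3 most abundant members per length were the same in both arms: Gapdh stood at 4968 ± 449.8 and 6690 ± 342 CPM per kilobase, Aldoa at 1908 ± 164 and 2889 ± 158 CPM per kilobase and Ldha at 1566 ± 126 and 2383 ± 213 CPM per kilobase with Adv-NC and Adv-ABHD11. Hexokinase and phosphofructokinase stood far lower, with the hexokinase sum at 122 ± 11.3 to 162 ± 11.97 CPM per kilobase.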

How the data were processed

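Each library's deposited file gave expected counts by gene symbol, estimates without scaling to library size. Per the submitters' processing notes the tools were Trimmomatic 0.39, HISAT2, RSEM and DESeq2 and the build was mm10, without roles. For annotation and strandedness, the entry is "not given in the sources used here". Without strand, reads of genes that overlap on opposite strands (Pfkfb1 with Apex2, Gys1 with Ruvbl2, Pfkm with Senp1, Pfkp with Pitrm1, Pfkfb2 with Yod1, Tpi1 with Spsb2, Gapdh with Iffo1, Aldoa with Fam57b) cannot be told apart. Fractional values, which mark reads shared with near-identical sequence, occurred for Gapdh, Eno1, Pfkp, Pfkfb2, Slc16a3 and Gys1, and the split is uncertain there.

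Each table held 21763 rows. For 22 rows that repeated a symbol, 1 of them a minor second row of Aldoa, the row with the most counts was kept. Counts were rounded. The fit used edgeR 4.0.16 under R 4.3.3. The filter was filterByExpr with min.count 10 and min.total.count 15, scaling was by TMM, and Adv-ABHD11 was compared with Adv-NC by the quasi-likelihood F test on the whole table. Benjamini-Hochberg adjustment ran over all genes tested, with a threshold of 0.05. Each SE is the absolute log2 fold change over the root of its F value. CPM used the TMM-scaled library sizes and is given by library in the order of replicates 1, 2 and 3, or as mean ± SD (n = 3 each). Alternatives included DESeq2 1.42.0. The procedure was tested on simulated data with far fewer changed genes. That cannot tell how it performs where, as here, 59.3% of all tested genes were called. Isoform shares divided CPM by transcript length (GENCODE M21, GRCm38) and were compared by two-sided exact permutation tests over libraries.

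The 34 genes, and the lists of other pathway and marker genes, were chosen with earlier results of these data known. The text names all 34 and, for each other pathway list, up to 4 genes with the smallest adjusted p, except 1 that is not reported here.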

Additional observations from a re-analysis of the deposited data

How the results depend on the processing

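All 28 members that passed kept their direction and stayed past the threshold in edgeR's or DESeq2's tests against no change under every alternative run: other scalings, filters, unrounded counts, the replicate block, the GC content and length correction and each library left out (largest adjusted p 0.0344, for Eno1, in edgeR). Only the test against a 1.5-fold change moved those calls. There, 1217 genes were higher and 1273 lower over all, 14 members were higher, and other pathway genes numbered 13 higher and 3 lower, against 33 and 8 in the test against no change. The 1 member at least 2-fold lower, Pfkfb4, was near that limit. The count was 0 with upper-quartile scaling, with library size only and with the GC content and length trend removed, without or with the replicate block, and 0 to 1 with 1 library left out (0 on leaving out Adv-NC replicate 2, and likewise for replicate 1 and for replicate 3 of Adv-ABHD11). The share of counts on the members was 1.41 percentage points higher with Adv-ABHD11, and 1.62 with mtDNA left out of the total, an alternative chosen after seeing the data.

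Of the 6 members that did not pass, Pfkfb2 and Pkm kept their sign throughout, and the other 4 changed it. Hk2 was at 0.055 with upper-quartile scaling and ran from -0.14 to 0.052 with 1 library left out. Eno2 was at 0.029 with upper-quartile scaling, 0.073 with the GC content and length trend removed, 0.10 with the replicate block added to that, and -0.24 to 0.20 with 1 library left out. Ugp2 was at -0.12 with that trend removed, and also with the block added (-0.121). Pfkfb1 ran from -0.076 to 0.47 with 1 library left out. The cause of these changes was not tested.

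No pairing by replicate number was seen: deviations of same-numbered libraries correlated at 0.0102, 0.204 and -0.104, and 1 of 3 correlated best with its own number. With 3 libraries an arm, this cannot tell whether the replicates were prepared in pairs. With the replicate block 3932 genes were higher and 3906 lower, against 3821 and 3768 without it, and 26 and 2 members. Depth limits the scarce members most, Pfkfb1 and Pfkfb2, for which 1 count was worth 0.0492 to 0.0598 CPM.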

Other observations

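Albumin (Alb), a liver transcript, stood at 10.2 CPM in Adv-NC replicate 1 and at 0 in the other Adv-NC libraries. Adv-NC replicate 1 was the lowest of its arm for 15 of the 34 genes and the highest for 9. Adv-ABHD11 replicate 3 was the lowest of its arm for 20 of 34 and the highest for 4. The same was not counted over all genes, and a link to the albumin counts was not tested.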
